A study of Mus musculus with 16 samples.

Results

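The proteasome is the protease complex that degrades ubiquitin-tagged proteins in the cytosol and nucleus. The genes described here encode its constitutive form: the 20S core, the 19S cap and the chaperones that assemble the base of that cap. They were the 34 rows of the deposited table whose symbols were Psma1 to Psma7, Psmb1 to Psmb7, Psmc1 to Psmc6 and Psmd1 to Psmd14. Inducible immunoproteasome subunits were not included. All 34 of 34 met the requirement of at least 10 counts in at least 4 of the 16 libraries, out of 21965 genes in the table, and all 34 were among the 11319 genes tested.

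RNA was sequenced from RAW264.7, a mouse macrophage line derived from a leukaemia. Cells received oxidised low-density lipoprotein (oxLDL, 50 µg/ml) with tirzepatide, oxLDL alone, tirzepatide alone (100 nmol/ml, the unit as the labels state it), or vehicle, which was culture medium, with 4 libraries per group. OxLDL is the lipoprotein whose uptake fills macrophages with lipid, and tirzepatide is a peptide that activates the receptors of the incretins GIP and GLP-1. The labels give neither a treatment time nor the culture each library came from, so the p-values speak only of the spread between these 16 samples, which may be technical. All 4 groups share the same cell line and growth medium.

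In the core, rings of alpha subunits gate the entrance and rings of beta subunits hold the protease sites. Of the beta subunits, Psmb6, Psmb7 and Psmb5 encode the sites of caspase-like, trypsin-like and chymotrypsin-like activity. In the cap, the base is a ring of ATPases (Psmc1 to Psmc6) that unfold the substrate, together with the scaffold proteins Psmd1 and Psmd2 and the ubiquitin receptor Psmd4. The lid holds Psmd14, which cuts the ubiquitin chain off the substrate, and its structural partners. Macrophages use the complex for general protein turnover, for breakdown of the NF-kB inhibitor and for the peptides shown on MHC class I.

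Library totals ran from 15877278 to 17336019 counts, and a proteasome gene had between 220 and 5281 counts in a library. Of 10 macrophage markers 9 exceeded 5 TPM (the deposited transcript level, scaled for length and depth) in all 16 libraries. Transcripts of pancreatic acinar enzymes, which macrophages are not known to make, summed to 264.1 TPM in vehicle library 1 and 139.7 TPM in vehicle library 2, against 6.969 to 54.62 TPM in the other 14. Of 16 such markers 15 were in the table, none of them at 0 in every library. Among them Amy2a5 did not follow the sum, at 0.032 and 0 TPM in vehicle libraries 1 and 2 and up to 8.137 TPM elsewhere. Of 5 hepatocyte markers 2 were at 0 throughout, and the 5 summed to at most 0.426 TPM. Mitochondrially encoded genes held 8.099% to 10.53% of the counts with oxLDL and tirzepatide, 7.69% to 9.318% with oxLDL, 8.184% to 8.673% with tirzepatide and 8.321% to 11.17% with vehicle. The part of either measure in the results below was examined by leaving out vehicle libraries 1 and 2, by a fit with a covariate for the mitochondrial share, and by summed levels without mitochondrially encoded genes.

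Proteasome transcripts differed in level from gene to gene. In vehicle the median gene of the 34 had a mean of 144.4 TPM. The highest were Psma6, an alpha-ring subunit, at 330.1 ± 10.4 TPM (SD, n = 4), the lid gene Psmd8 at 319.7 ± 9.25 TPM and the alpha-ring gene Psma3 at 315 ± 17.2 TPM. The lowest were the 3 base chaperones, with Psmd10 at 53.5 ± 2.36 TPM, Psmd5 at 37.5 ± 3.11 TPM and Psmd9 at 12.2 ± 1.23 TPM. These chaperones hold the ATPases during assembly and are not part of the finished particle.

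When the genes were put in order of their vehicle level, 26 of the 33 pairs of neighbours had overlapping values over the 4 vehicle libraries, so that the order within most of the list is not resolved. The median gene of the alpha ring was at 194.9 TPM, with a range of gene means from 63.9 TPM for Psma2 to that of Psma6. Beta-ring genes were closer together, from 106.5 TPM for Psmb7 to 225.4 TPM for Psmb4, with a median of 181 TPM. The ATPases lay lower, with a median of 124.5 TPM, from 72.0 TPM for Psmc5 to 181.8 TPM for Psmc1. The median over the lid was 108.6 TPM, with Psmd3 lowest at 65.0 TPM. The ubiquitin receptor Psmd4 was at 287.3 TPM, the scaffold gene Psmd2 at 188.2 TPM and its partner Psmd1 at 82.9 TPM. Levels of RNA per gene thus differed within each ring although one copy of each subunit is placed per ring.

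**Figure D1:**
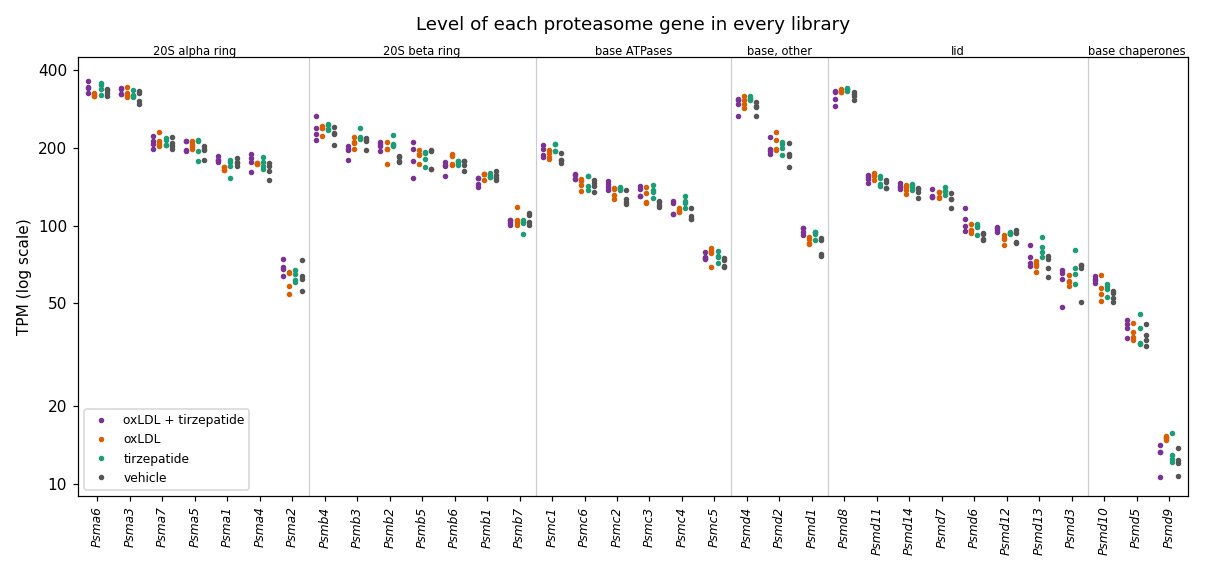
TPM (log axis) of the 34 genes in each of the 16 libraries, 1 point per library, genes grouped by their place in the complex and ordered by vehicle mean, with a colour per group of libraries. Within a gene the 4 groups lie close together on this axis, though for some genes 2 groups do not overlap. Genes range from 12.2 TPM (Psmd9) to 330.1 TPM (Psma6) in the vehicle mean.

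Across the 16 libraries the genes varied little. The SD of log2(TPM + 1) over all libraries had a median of 0.08 for the 34 genes, against 0.13 for all tested genes. It was 0.11 for the 7090 tested genes with a mean in the same TPM range. That range, from 13.4 TPM (Psmd9) to 334.9 TPM (Psma6), is wide, and the genes in it were not matched to the 34 for level. The highest library exceeded the lowest by a median of 1.225-fold, from 1.145-fold for Psma6 to 1.667-fold for the lid gene Psmd3. Psmd3 was lowest in library 1 of all 4 groups, at 48.3 TPM with oxLDL and tirzepatide, 58.3 TPM with oxLDL, 59.7 TPM with tirzepatide and 50.5 TPM with vehicle. The only other gene of the 34 with this pattern was the beta-ring gene Psmb4. Of all tested genes 3.499% were lowest in library 1 of every group, and 0.5036% were highest there. Whether the library numbers mark a shared culture or day is not stated.

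The genes as a whole took 0.5083% to 0.5518% of all TPM. Their sum was 5222, 5424, 5326 and 5518 TPM in libraries with oxLDL and tirzepatide, 5257, 5310, 5426 and 5292 TPM with oxLDL, 5425, 5494, 5459 and 5324 TPM with tirzepatide, and 5083, 5189, 5133 and 5193 TPM with vehicle. All 12 treated libraries were above the highest vehicle library. The mean with both agents was 1.043-fold the vehicle mean, that with oxLDL 1.033-fold and that with tirzepatide 1.054-fold, all 3 read against the same 4 vehicle libraries. With mitochondrially encoded genes taken out of the total, an alternative added after the data were seen, the ranges overlapped: 6345 to 6583 TPM with both, 6284 to 6371 TPM with oxLDL, 6308 to 6570 TPM with tirzepatide and 6075 to 6396 TPM with vehicle. In bulk RNA, a change in the number of cells of a kind and a change in RNA per cell cannot be told apart.

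Sums were also taken over the cap and the core apart, with no test between them. The 17 cap genes summed to 2976 to 3095 TPM with oxLDL and tirzepatide, 2927 to 2951 TPM with oxLDL, 2980 to 3060 TPM with tirzepatide and 2798 to 2900 TPM with vehicle, on the scale without mitochondrially encoded genes, so that no treated library fell within the vehicle range. On the deposited scale the cap summed to 2405 to 2550 TPM with both agents, 2436 to 2498 TPM with oxLDL, 2515 to 2554 TPM with tirzepatide and 2266 to 2445 TPM with vehicle, where vehicle library 4 reached into both groups with oxLDL. The 14 core genes overlapped vehicle in all 3 treated groups on both scales, with deposited TPM of 2704 to 2869 with both agents, 2704 to 2818 with oxLDL, 2705 to 2829 with tirzepatide and 2643 to 2726 with vehicle. The ratio of core to cap was 1.107 ± 0.026 with both, 1.111 ± 0.016 with oxLDL, 1.095 ± 0.020 with tirzepatide and 1.141 ± 0.050 with vehicle (SD, n = 4 each), with ranges that overlapped between all groups. These sums are descriptions of a chosen list and carry no test.

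**Figure D2:**
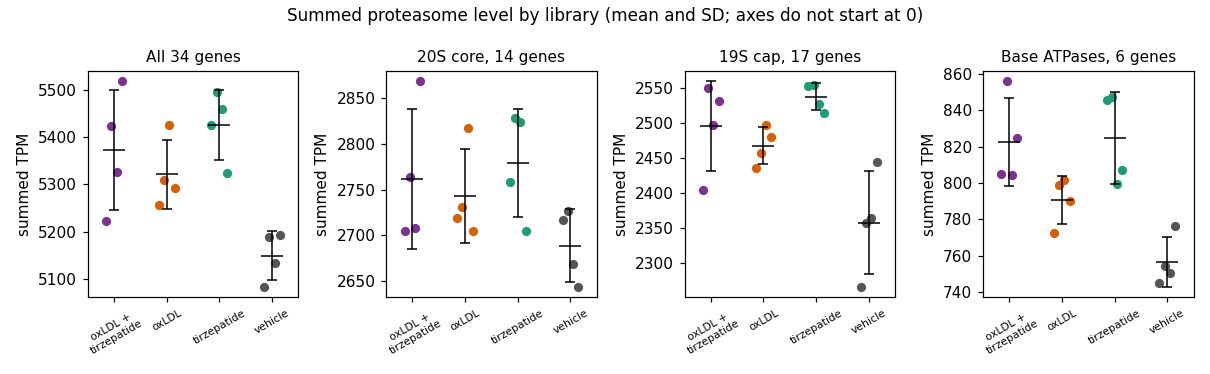
Summed deposited TPM per library for all 34 genes, the 14 core genes, the 17 cap genes and the 6 base ATPases (points are libraries, bars the mean and SD, n = 4, and the axes do not start at 0). All 12 treated libraries lie above the 4 vehicle libraries for the whole list, with means of 1.033-fold to 1.054-fold, while the core genes, and the cap genes in both groups with oxLDL, overlap vehicle.

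The first comparison, oxLDL against vehicle, addressed what lipoprotein loading does to these genes, and none of the 34 passed the test. By edgeR, 0 of 34 had an adjusted p under 0.05 in either direction, where 4.54% of all tested genes did, and 2 of 34 were higher and 0 lower at an unadjusted p under 0.05, where 9.69% of all genes were higher and 8.35% lower. DESeq2 called 1, Psmd2, beside 5.757% of all genes. The median log2 change over the 34 genes was 0.06, against -0.00 over all tested genes, with 27 positive and 7 negative. Changes ran from -0.09 for Psma1 to 0.18 for Psmd9.

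The catalytic genes had log2 changes near 0 with oxLDL. Psmb5 was at 174, 197, 189 and 187 TPM with oxLDL and at 167, 194, 197 and 166 TPM with vehicle, a log2 change of 0.04 (95% interval -0.12 to 0.20, SE 0.07, edgeR adjusted p = 0.838). Psmb6 had a log2 change of 0.05 (95% interval -0.06 to 0.16) and Psmb7 one of -0.00 (95% interval -0.13 to 0.13). The groups overlapped for all 3 genes. The smallest adjusted p among the 34 was that of Psmd2, at 197, 198, 216 and 231 TPM with oxLDL against 169, 186, 189 and 209 TPM with vehicle (log2 change 0.12, SE 0.04, edgeR adjusted p = 0.0941), and these ranges overlapped as well. Groups did not overlap for 3 genes, Psmd11 and Psmd9 higher and Psma1 lower with oxLDL, which is 2 of 34 higher where 4.86% of all tested genes were, and 1 lower where 3.44% were. The 95% intervals of all 34 changes lay between -0.27 and 0.41.

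Tirzepatide alone was next compared with vehicle, which shares its vehicle libraries with the comparison above. Psmc3, an ATPase of the base ring, rose, and no other gene of the 34 passed the test. That is 1 of 34, or 2.941%, against 2.34% of all tested genes called higher and 4.08% called in either direction. Psmc3 had 135, 138, 128 and 145 TPM with tirzepatide and 121, 118, 124 and 125 TPM with vehicle. Every tirzepatide library was above every vehicle library. Its log2 change was 0.18 (95% interval 0.07 to 0.29, SE 0.05, edgeR adjusted p = 0.0429), a 1.134-fold difference. The call was lost without any 1 of 11 of the 16 libraries (vehicle 2, 3 and 4, oxLDL 1, 2 and 4, tirzepatide 1, 2 and 4, and combination libraries 3 and 4), with an adjusted p of at most 0.136. It was lost too with only the 2 groups in the fit (log2 change 0.18, adjusted p = 0.0595) and without vehicle libraries 1 and 2 (log2 change 0.18, adjusted p = 0.138), with a change as large as before. Without vehicle library 1 there were 2 calls, Psmb2 and Psmc3, beside 4.407% of all genes.

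The other ATPases went the same way in size but did not pass. All 6 had a positive change with tirzepatide, from 0.05 to 0.18 with a median of 0.11, and their summed level was 846, 847, 800 and 807 TPM with tirzepatide against 745, 754, 750 and 777 TPM with vehicle. No library overlapped between the groups, here or on the scale without mitochondrially encoded genes. This was not particular to the ATPases. The lid sum was apart on both scales too, at 1098 to 1119 TPM with tirzepatide and 1008 to 1068 TPM with vehicle as deposited. The beta-ring sum was apart only as deposited (1267 to 1303 against 1208 to 1263 TPM). Sums of the alpha ring, the other base genes and the chaperones overlapped. Over the 34 genes the median log2 change was 0.05, against -0.00 over all tested genes, with 25 positive. At an unadjusted p under 0.05 there were 9 genes higher and 0 lower, where 9.58% of all tested genes were higher and 8.98% lower. The 9 were 4 ATPases (Psmc1, Psmc2, Psmc3 and Psmc4), the scaffold and receptor genes Psmd1, Psmd2 and Psmd4, the lid gene Psmd13 and the beta-ring gene Psmb2. They are listed after their values were seen, and 8 of them failed the adjustment over all genes.

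Psmb2, a beta subunit with no active site, had the largest change of the 34 with tirzepatide, at 206, 207, 204 and 225 TPM against 186, 177, 178 and 185 TPM with vehicle. Groups did not overlap for 6 genes, all higher with tirzepatide (Psmb2, Psmc1, Psmc2, Psmc3, Psmd4 and Psmd8), or 6 of 34 where 7.27% of all tested genes were higher and 2.68% lower. None of the catalytic genes was among them. Psmb5 had a log2 change of -0.01 (95% interval -0.17 to 0.15), Psmb6 one of -0.01 (95% interval -0.11 to 0.10) and Psmb7 one of -0.11 (95% interval -0.23 to 0.02, adjusted p = 0.346 by edgeR), and the groups overlapped for all 3. Psmb7 was at 103, 103, 105 and 92.8 TPM with tirzepatide and at 112, 103, 101 and 110 TPM with vehicle.

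OxLDL with tirzepatide was then set against vehicle, again the same vehicle libraries. Of the 34 genes 3 rose and 0 fell: the base scaffold gene Psmd1, the ATPase Psmc2 and the lid gene Psmd6. The 3 of 34 are 8.824%, beside 8.94% of all tested genes called in either direction and 4.69% called higher. At an unadjusted p under 0.05 there were 7 higher and 1 lower, where 11.9% of all tested genes were higher and 11.5% lower. The median log2 change was 0.07, against -0.00 over all tested genes, with 28 positive, from -0.13 for Psmb3 to 0.20 for Psmd1.

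Psmd1 had 98.2, 97.9, 94.9 and 92.3 TPM with both agents and 77.5, 76.3, 88.3 and 89.6 TPM with vehicle. The groups did not overlap, and vehicle libraries 1 and 2 were well below vehicle libraries 3 and 4. The log2 change was 0.20 (95% interval 0.10 to 0.31, SE 0.05, edgeR adjusted p = 0.0109). Its call was lost without vehicle library 2 (log2 change 0.16, adjusted p = 0.0673) and without vehicle libraries 1 and 2 (log2 change 0.13, adjusted p = 0.135), the libraries with the highest acinar sums. Psmd1 was at 90.5, 85.8, 88.5 and 84.7 TPM with oxLDL and 94.4, 94.8, 88.5 and 92.8 TPM with tirzepatide, so each single treatment overlapped vehicle.

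Psmc2 had 141, 149, 138 and 145 TPM with both agents against 127, 121, 124 and 137 TPM with vehicle, which did not overlap. Its log2 change was 0.16 (95% interval 0.06 to 0.26, SE 0.05, edgeR adjusted p = 0.0297). Psmd6 had 99.6, 107, 95.5 and 118 TPM with both agents against 88.1, 94.1, 88.8 and 93.0 TPM with vehicle, again without overlap, for a log2 change of 0.19 (95% interval 0.07 to 0.32, SE 0.06, edgeR adjusted p = 0.0357). The Psmc2 call was lost without any 1 of vehicle libraries 2 and 3 and combination libraries 1, 2 and 4, with an adjusted p of at most 0.119, and without vehicle libraries 1 and 2 together (log2 change 0.16, adjusted p = 0.0739). The Psmd6 call was lost without any 1 of vehicle libraries 2, 3 and 4 and combination libraries 1, 2 and 4, with an adjusted p of at most 0.157, but not without vehicle libraries 1 and 2 together (log2 change 0.23, adjusted p = 0.0429). The number called was 0 without vehicle library 2, beside 4.171% of all genes. It was 1 (Psmd1) without vehicle library 3 (4.436% of all genes) or combination library 1 (4.61%), 2 (8.943%) or 4 (5.494%). Without vehicle library 1 it was 6, where 12.73% of all genes were called.

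With only the 2 groups in the fit none of the 3 passed, where 3.694% of all genes did. With a covariate for the mitochondrial share 7 were called higher (Psma2, Psmb2, Psmc2, Psmc6, Psmd1, Psmd6 and Psmd10) beside 14.14% of all genes. Groups did not overlap for 7 genes, all higher with both agents (Psmb2, Psmc2, Psmc3, Psmc6, Psmd1, Psmd6 and Psmd10), where 5.71% of all tested genes were higher and 3.27% lower. All 6 ATPases and all 7 alpha-ring genes had a positive change against vehicle, with medians of 0.10 and 0.06, and 3 of the 7 beta-ring genes did, with a median of -0.04. Summed ATPase levels were 805, 856, 804 and 824 TPM with both agents, all above the vehicle range. The summed base chaperones were apart from vehicle too, at 110 to 120.2 TPM against 99.85 to 106.6 TPM. Sums of the other parts overlapped vehicle as deposited. The lid sum was apart without mitochondrially encoded genes (1296 to 1334 against 1236 to 1273 TPM).

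**Figure D3:**
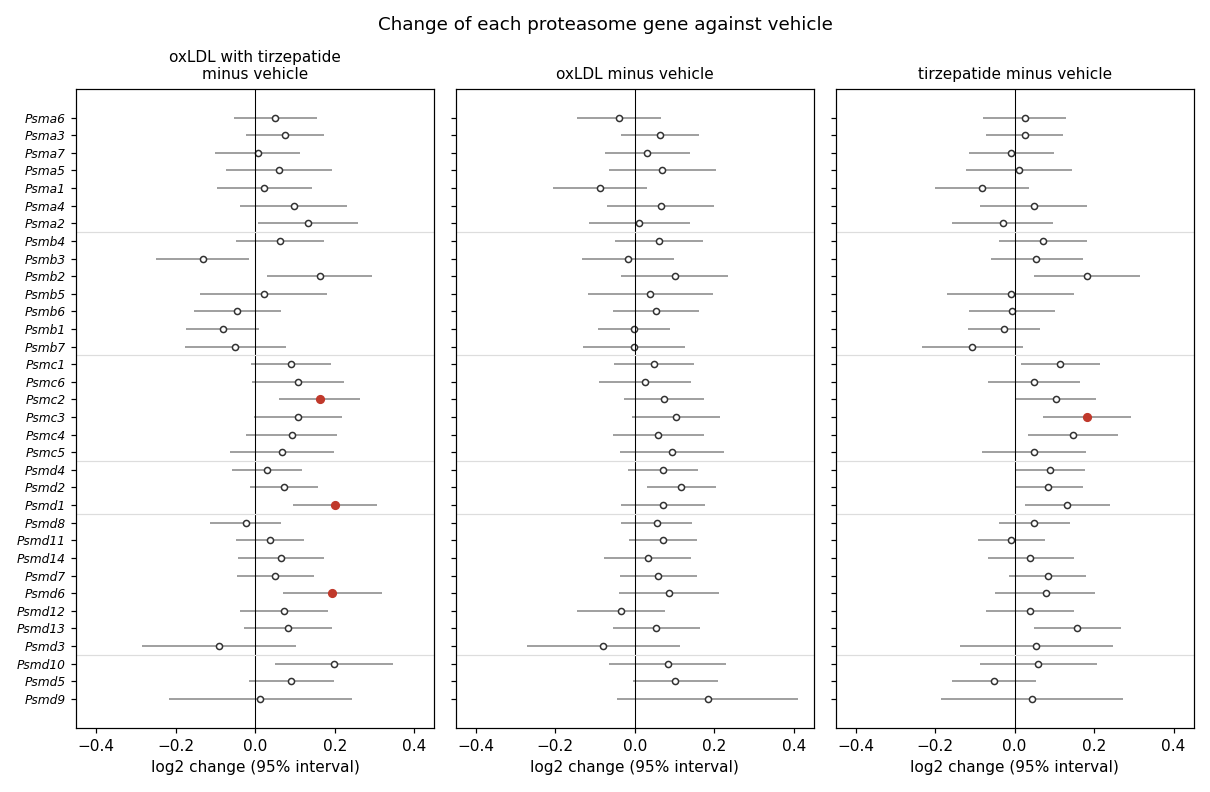
Log2 change against vehicle (point) with its 95% interval (line) for each of the 34 genes, grouped by place in the complex, for oxLDL with tirzepatide, oxLDL, and tirzepatide. Filled points passed an adjusted p under 0.05 (Psmd1, Psmc2 and Psmd6 with both agents, Psmc3 with tirzepatide), and all points lie between -0.13 and 0.20.

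**Figure D4:**
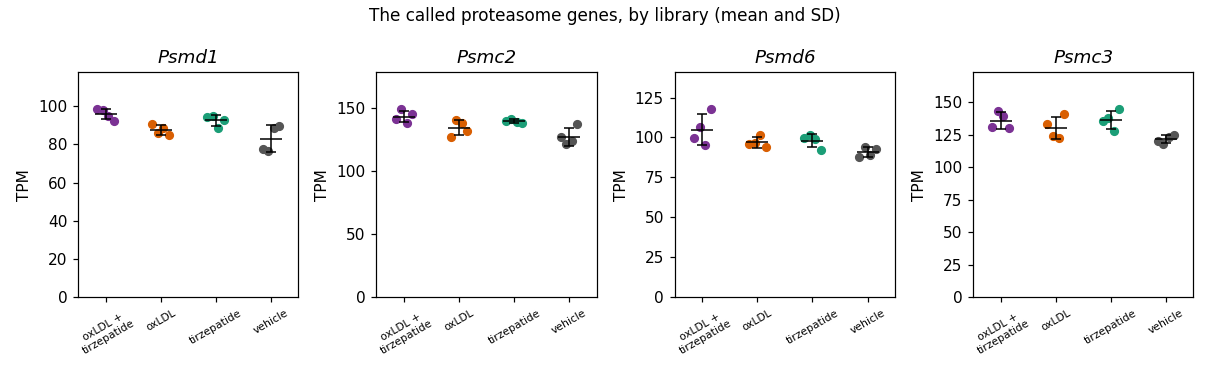
TPM per library of Psmd1, Psmc2, Psmd6 and Psmc3 in the 4 groups (points are libraries, bars the mean and SD, n = 4, axes from 0). The called differences are 1.119-fold to 1.15-fold, and vehicle libraries 1 and 2 of Psmd1 sit below the rest.

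Tirzepatide added to oxLDL, set against oxLDL alone, gave no gene of the 34 that passed the test. By edgeR 0 of 34 had an adjusted p under 0.05, as against 0.0353% of all tested genes, and DESeq2 called 0. At an unadjusted p under 0.05, 3 were higher and 1 lower, where 5.15% of all tested genes were higher and 4.97% lower. The median log2 change was 0.00, with 18 positive, and the 95% intervals lay between -0.40 (Psmd9) and 0.26 (Psmd10). The largest positive change was that of Psmd1, 0.13 (SE 0.05, edgeR adjusted p = 0.366), with the values given above, which did not overlap. Psma1 and Psmd12 were also higher without overlap, and Psmd9 was lower, which is 3 of 34 higher where 3.08% of all tested genes were and 1 lower where 1.67% were.

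None of the catalytic genes passed with both agents against oxLDL. Psmb5 had 153, 178, 198 and 211 TPM with both agents, beside the oxLDL values above, for a log2 change of -0.02 (95% interval -0.18 to 0.14). The library-to-library range of Psmb5 with both agents was wider than in any other group. Psmb6 had 156, 172, 171 and 177 TPM with both agents against 173, 171, 190 and 187 TPM with oxLDL, a log2 change of -0.10 (95% interval -0.20 to 0.01, SE 0.05, edgeR adjusted p = 0.51). Psmb7 had a log2 change of -0.05 (95% interval -0.18 to 0.08), and all 3 genes overlapped between the groups.

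OxLDL added to tirzepatide, set against tirzepatide alone, likewise gave 0 of 34 called by edgeR, where 1.54% of all tested genes were, with 2 higher and 1 lower at an unadjusted p under 0.05 (6.54% and 7.28% of all tested genes). DESeq2 called 1, Psmb3, beside 3.762% of all genes. This beta-ring gene without an active site had 179, 196, 198 and 203 TPM with both agents against 221, 219, 239 and 216 TPM with tirzepatide. The groups did not overlap, with a log2 change of -0.19 (SE 0.05, edgeR adjusted p = 0.0767). Psmb1 was lower and Psmd10 and Psmd12 higher without overlap, or 2 of 34 each way, where 2.17% of all tested genes were higher and 4.40% lower. The median over the 34 was 0.02.

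The interaction asked whether both agents together departed from the sum of their single log2 changes. No gene of the 34 passed by edgeR (0.0707% of all tested genes did) or by DESeq2. At an unadjusted p under 0.05, 1 was higher and 5 lower, where 4.77% of all tested genes were higher and 5.55% lower, and the smallest adjusted p was 0.398. The median was -0.02, with 9 positive and 25 negative, from -0.21 for Psmd9 to 0.19 for Psma1. For Psmc3 the interaction was -0.18 (95% interval -0.33 to -0.02, SE 0.07, edgeR adjusted p = 0.399), so its response to tirzepatide was not shown to differ with oxLDL.

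Immunoproteasome subunits replace the catalytic ones when interferon induces them: Psmb9 takes the place of Psmb6, Psmb10 that of Psmb7 and Psmb8 that of Psmb5. Psmb9 and Psmb10 were low in all 16 libraries, at 1.98 to 6.67 TPM and 3.00 to 6.60 TPM, and neither passed in any comparison. Psmb8 fell with oxLDL and tirzepatide against vehicle, at 34.7, 40.7, 31.1 and 40.0 TPM with both agents and 40.1, 50.3, 50.7 and 46.5 TPM with vehicle, which overlapped in 1 library of each group. Its log2 change was -0.31 (SE 0.09, edgeR adjusted p = 0.0294). That call was lost without any 1 of vehicle libraries 2 and 3 or combination libraries 1 and 3, with an adjusted p of at most 0.0997. It was lost too without vehicle libraries 1 and 2 together (log2 change -0.30, adjusted p = 0.081) and with only the groups compared (log2 change -0.31, adjusted p = 0.0767).

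With oxLDL alone Psmb8 was at 35.0, 38.2, 42.3 and 37.2 TPM, and its difference from vehicle did not pass (log2 change -0.28, adjusted p = 0.0658 by edgeR). With tirzepatide alone Psmb8 was at 46.0, 44.5, 50.0 and 50.0 TPM. Both agents were lower than this without overlap but did not pass (log2 change -0.325, SE 0.09, edgeR adjusted p = 0.0602). The ratio of Psmb5 to Psmb8 in TPM was 4.371 to 6.371 with both agents, 4.466 to 5.143 with oxLDL, 3.616 to 4.298 with tirzepatide and 3.567 to 4.155 with vehicle. Both groups with oxLDL were above the vehicle range and the tirzepatide group overlapped it. The other 2 pairs overlapped across all groups, with Psmb6 at 26.63 to 89.89 times Psmb9 and Psmb7 at 15.62 to 39.62 times Psmb10 over the 16 libraries.

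**Figure D5:**
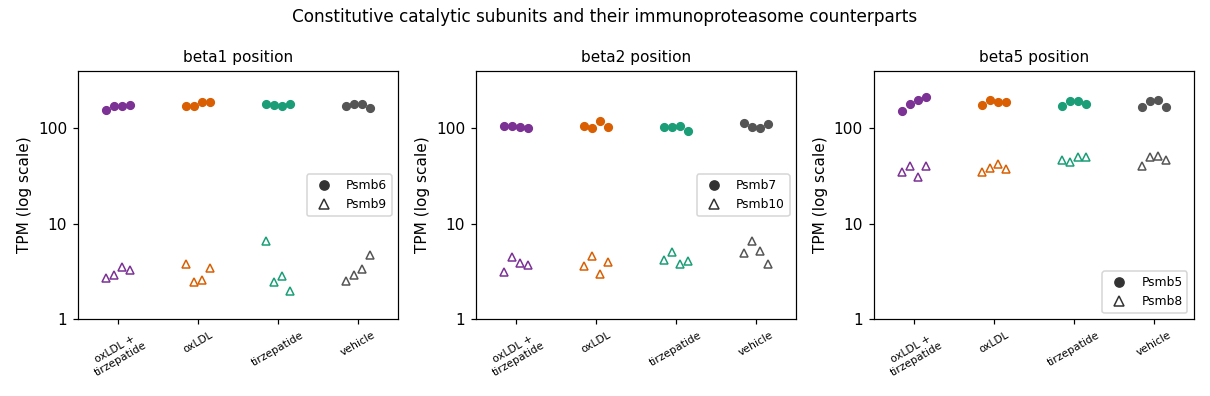
TPM (log axis) of the constitutive catalytic subunits (filled circles) and of the immunoproteasome subunits that take their places (open triangles) in each library of the 4 groups. Psmb8 lies nearest to its counterpart Psmb5, at a ratio of 3.567 to 6.371 over all libraries, and was at 31.1 to 40.7 TPM with both agents and 40.1 to 50.7 TPM with vehicle.

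Genes around the complex were read from lists of related genes. None of the 5 activator and inhibitor genes (Psme1 to Psme4 and Psmf1), 7 other cap and assembly genes (of 8 listed, 7 were in the table) and 9 genes of transcriptional control passed in any of the 6 comparisons. Of all tested genes 0.0353% to 8.94% passed, depending on the comparison. The last list holds Nfe2l1, the factor that raises proteasome genes when the protease is inhibited, which was at 245, 268, 257 and 263 TPM with both agents, 262, 255, 272 and 270 TPM with oxLDL, 269, 280, 276 and 315 TPM with tirzepatide, and 203, 230, 271 and 308 TPM with vehicle. In TPM the vehicle libraries alone spanned nearly the whole range. By counts the log2 change of Nfe2l1 against vehicle was 0.09 with tirzepatide, -0.03 with oxLDL and -0.02 with both agents, each with SE 0.05. Psma8 and Psmb11, the subunits specific to testis and thymus, were listed at 0 and at most 0.058 TPM and were not tested.

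Among 16 ubiquitin and shuttle genes, 3 rose and 2 fell with tirzepatide against vehicle, beside 4.08% of all tested genes called in either direction. Ubb, a polyubiquitin gene, rose to 1449, 1471, 1411 and 1511 TPM with tirzepatide, against 1217, 1227, 1273 and 1227 TPM with vehicle (log2 change 0.22, SE 0.05, edgeR adjusted p = 0.0109), without overlap. Rps27a, which encodes ubiquitin fused to a ribosomal protein, fell to 2241, 2238, 2378 and 1839 TPM, against 2802, 2712, 2789 and 2412 TPM with vehicle (log2 change -0.32, SE 0.07, edgeR adjusted p = 0.00719), also without overlap. Genes of this kind have many processed copies in the genome. The counts are expected counts estimated with RSEM, and how far reads of such copies affect them was not tested.

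The Ubb call was lost without vehicle library 2 (adjusted p = 0.052) and the Rps27a call without vehicle libraries 1 and 2 together (adjusted p = 0.0853). Named after their values were seen, 2 more rose with tirzepatide: the shuttle gene Rad23b (log2 change 0.18, edgeR adjusted p = 0.0365) and the autophagy receptor gene Sqstm1 (log2 change 0.16, edgeR adjusted p = 0.044). Sqstm1 rose with oxLDL too (log2 change 0.17, SE 0.05, edgeR adjusted p = 0.026), the only call of the 16 there, beside 4.54% of all tested genes. These 3 calls were lost without vehicle library 2 and without other single libraries. With both agents Rps27a was the only gene of the 16 to pass against vehicle (log2 change -0.21, SE 0.07, edgeR adjusted p = 0.0406), beside 8.94% of all tested genes. This Rps27a call was lost without any 1 of 7 libraries. None of the 16 passed with both agents against either agent alone, where 0.0353% of all tested genes passed against oxLDL and 1.54% against tirzepatide.

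Promoter sequence was looked at as a property that the choice of genes did not use. The windows come from RefSeq on build GRCm38.p6, an earlier build than that of the counts, and 28 of the 34 genes matched by symbol, with the 250 bases before the start searched on both strands. The letters CCGGAAG, the core bound by ETS-family factors, occurred in 8 of the 28 (28.6%), against 7.05% of the 27018 genes with a window. Those 27018 genes were not limited to genes expressed in these cells, and the share among the 11319 tested genes was not computed. An antioxidant response element-like run, TGACNNNGC or TGAGNNNGC, occurred in 10 of 28 (35.7%), against 22.8% of all, and CCAAT in 11 of 28 (39.3%), against 34.5%. The runs TGACNNNGC and TGAGNNNGC cannot match at the same place, and a promoter can hold more than 1 kind. Median GC content was 54.6% for the 28 and 52% for all.

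The 200 bases before the start are shown for the 3 genes called with both agents and for the catalytic genes Psmb5 and Psmb6, since these carry the comparisons above. Each is written 5′ to 3′ on the strand of its gene, and capitals mark a match to CCGGAAG, to CCAAT or to TGACNNNGC on either strand. Psmd1 lies at chr1:86064419-86064618 (plus strand), Psmc2 at chr5:21785075-21785274 (plus), Psmd6 at chr14:14120946-14121145 (minus), Psmb5 at chr14:54617996-54618195 (minus) and Psmb6 at chr11:70525157-70525356 (plus).
Psmd1: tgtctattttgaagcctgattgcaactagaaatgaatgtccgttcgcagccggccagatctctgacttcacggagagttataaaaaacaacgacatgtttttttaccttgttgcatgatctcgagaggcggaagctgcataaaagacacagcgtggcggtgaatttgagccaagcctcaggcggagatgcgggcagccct
Psmc2: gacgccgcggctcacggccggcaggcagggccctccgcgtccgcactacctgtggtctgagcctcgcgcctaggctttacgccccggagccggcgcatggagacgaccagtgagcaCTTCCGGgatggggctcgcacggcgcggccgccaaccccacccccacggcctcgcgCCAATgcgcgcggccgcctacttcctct
Psmd6: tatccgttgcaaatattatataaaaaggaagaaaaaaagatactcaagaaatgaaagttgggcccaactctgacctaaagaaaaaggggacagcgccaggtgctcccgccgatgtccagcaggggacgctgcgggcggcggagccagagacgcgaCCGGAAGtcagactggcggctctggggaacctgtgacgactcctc
Psmb5: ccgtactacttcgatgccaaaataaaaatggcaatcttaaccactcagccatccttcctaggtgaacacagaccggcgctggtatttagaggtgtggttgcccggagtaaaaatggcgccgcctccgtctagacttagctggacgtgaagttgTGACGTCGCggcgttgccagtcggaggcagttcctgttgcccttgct
Psmb6: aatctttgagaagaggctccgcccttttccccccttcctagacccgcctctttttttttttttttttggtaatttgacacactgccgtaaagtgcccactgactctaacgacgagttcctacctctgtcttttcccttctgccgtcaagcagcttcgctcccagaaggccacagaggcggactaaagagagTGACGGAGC

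The Psmc2 and Psmd6 windows hold the ETS core (that of Psmc2 on the opposite strand), those of Psmb5 and Psmb6 hold TGACNNNGC, and the one of Psmd1 holds none of the 3 within these bases. Changes in RNA were compared, with no test, only by the antioxidant response element-like run and by the ETS core. With both agents against vehicle the median log2 change was 0.06 for the 10 genes with an antioxidant response element-like run and 0.07 for the 18 without, and 0.08 for the 8 with the ETS core and 0.06 for the 20 without. With tirzepatide the medians were 0.04 and 0.06 with and without the antioxidant response element-like run, and 0.08 and 0.04 with and without the ETS core. A match is a description of letters and says nothing on whether a factor was bound.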

How the data were processed

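RNA sequencing libraries of RAW264.7 cells were analysed from 1 deposited table. Its expected counts were estimated by the authors with RSEM and are not scaled between libraries, and its TPM values are as deposited by the authors. Tools named in the submitters' processing notes are RSEM (no version), StringTie 1.3.1, Bowtie2 2.2.8 and fastp 0.18.0, and the builds are GRCm39 and mm39. The annotation release is not given in the sources used here.

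After rounding, the counts went into edgeR 4.0.16 (R 4.3.3) with TMM factors and filterByExpr at its minimum count of 10. A single model of all 16 libraries, with each group as a level, was tested with glmQLFit and glmQLFTest. P-values were adjusted per contrast over 11319 genes (Benjamini-Hochberg), and a gene was called at an adjusted p under 0.05. The 95% intervals use 12 residual degrees of freedom and are wider than the edgeR tests imply. For Psmd5 with oxLDL against vehicle the interval was -0.004 to 0.208, where the unadjusted edgeR p was 0.0466. The common biological coefficient of variation was 0.0633. Replicates of a group differed by more than counting error, with a chi-square per degree of freedom of 2.713 to 17.75 over 24 pairs.

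Levels and sums are TPM, and changes come from counts. For the proteasome genes the 2 differed by at most 0.12 (log2) over the 5 contrasts of groups, for Psmd9. Related genes differed more, such as Pomp, whose TPM with tirzepatide over vehicle gave -0.40 (log2) and whose counts gave -0.09. Alternatives were DESeq2 1.42.0, DESeq2 size factors, quantile normalization and log2(TPM + 1) in limma 3.58.1, no filter, a filter of 5 TPM, only the groups compared, the library number as a block, libraries left out and a mitochondrial covariate.

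The members, lists and rules were chosen with earlier results of these data known. The rule for named genes took every member called, the 3 catalytic genes, the 3 highest and 3 lowest in vehicle, and up to 3 called genes of each related list, of which 1 is not reported here.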

Additional observations from a re-analysis of the deposited data

Results flagged for a closer look

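In each group of 4 libraries, a library was singled out when its gap to the nearest other library, as a share of the group's range, exceeded Dixon's 95% critical value. Of the 140 groups looked at (34 genes and the summed level, in 4 groups each, with 4 libraries), 5 met this, and chance alone marks about 1 in 20. The lid gene Psmd3 had 50.5 TPM in vehicle library 1, against 68.4 to 70.8 TPM in the other vehicle libraries, and it was also lowest in library 1 of the other groups. The beta-ring gene Psmb2 had 224.8 TPM in tirzepatide library 4, against 204.2 to 206.6 TPM in the other 3. The lid gene Psmd7 had 138.6 TPM in combination library 3, against 128.8 to 130.4 TPM. The beta-ring gene Psmb1 had 150.3 TPM in oxLDL library 1, against 158.5 to 159.4 TPM. The catalytic gene Psmb6 had 171.7 TPM in tirzepatide library 3, against 177 to 177.7 TPM.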

How the results depend on the processing

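The number of proteasome genes called depended on settings in 4 of the 6 comparisons. Under DESeq2 the count was 1 for oxLDL against vehicle (5.757% of all genes called) and 1 (Psmb3, lower) for both agents against tirzepatide (3.762%). For tirzepatide against vehicle it was 0 under quantile normalization (2.995% of all genes called), the 5 TPM filter (4.651%) and only the groups compared (2.375%). It was also 0 without vehicle libraries 1 and 2 (1.776%) and without the libraries numbered 1 (2.569%). With the mitochondrial covariate it was 3, beside 7.571% of all genes. For both agents against tirzepatide it was 1 with that covariate, beside 1.899% of all genes. For both agents against vehicle it was 1 (Psmd1) under quantile normalization, beside 7.527% of all genes, and 0 with only the groups compared, beside 3.694%. It was 0 without the libraries numbered 1, beside 6.753%, and 7 with the covariate, beside 14.14%. Leaving out 1 library gave 0 to 2 called with tirzepatide, 0 to 6 with both agents against vehicle, and 0 in the other 4 comparisons. The share of all genes called moved too. Without vehicle library 2 it was 1.045% with tirzepatide and 4.171% with both agents against vehicle. Without vehicle library 1 it was 4.407% and 12.73%.

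With the library number as a replicate block, 2 genes were called with tirzepatide against vehicle (Psmb2 and Psmc3), 1 with both agents against tirzepatide and 5 with both against vehicle, beside 6.626%, 3.34% and 11.99% of all genes. The numbers did not meet the condition for pairing, a correlation over 0.1 in every pair: 5 of 24 same-number correlations exceeded 0.1, and a library correlated best with its own number in 9 of 24 cases. For every pair of groups except oxLDL with tirzepatide, library 1 of the first group correlated best with library 1 of the second. Those correlations were 0.07 to 0.19, against -0.01 for oxLDL with tirzepatide. Of all tested genes 3.499% were lowest in library 1 of every group and 0.5036% were highest. The main model leaves the library number out, and whether the numbers mark something shared was not settled.

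Medians over the 34 genes kept their sign in the 3 comparisons with vehicle, and the interaction median of -0.02 moved to -0.061 with limma on TPM, -0.066 without vehicle libraries 1 and 2, and -0.073 with the covariate. The fit of only the groups compared gives no interaction. Without 1 library the medians ran from 0.040 to 0.063 with oxLDL, 0.024 to 0.062 with tirzepatide and 0.047 to 0.081 with both agents against vehicle, from -0.004 to 0.018 against oxLDL, 0.007 to 0.033 against tirzepatide, and -0.049 to -0.009 for the interaction. Changes of catalytic genes near 0 took the other sign in 26 cases (1 gene in 1 comparison under 1 setting), none of them called. Psmb5 with oxLDL came to -0.003 with the covariate, and to -0.018 to 0.076 without 1 library. Psmb7 with oxLDL came to 0.004 with limma on TPM, 0.047 without vehicle 1 and 2, 0.041 without the libraries numbered 1, 0.035 with the covariate, and -0.042 to 0.043 without 1 library. Psmb5 with tirzepatide came to 0.022, 0.017 and 0.004 under the first 3 of these and -0.068 to 0.026 without 1 library, and Psmb6 to 0.024, 0.044 and 0.000, and -0.053 to 0.010. Psmb5 with both agents against oxLDL came to 0.029 without the libraries numbered 1, 0.007 with the covariate and -0.083 to 0.051 without 1 library. The cause of these shifts was not tested.

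Over all named genes and settings, 432 results kept direction and call, 109 lost the call and 26 changed sign. With 4 libraries per group the median SE of a change was 0.051 (log2), which limits the sizes that could be detected.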
